A study of Homo sapiens with 8 samples.

Results

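The miR-33 family in human cells has 4 mature arms, hsa-miR-33a-5p, hsa-miR-33a-3p, hsa-miR-33b-5p and hsa-miR-33b-3p, and all 4 were among the 2575 miRNA names counted in this series. The members were chosen by name, and the family was put forward with the fold changes and arm ratios of these same libraries already known. Their differences between the groups are therefore given as a description: calls at the threshold are counted beside the share over all miRNAs, but no p-value is given for a member and nothing is read from its call. Small RNA was counted in HCT116, an epithelial colorectal cancer cell line, at passages 16 to 19. In the ETBF group (4 libraries) the cells were kept for 6 hours with enterotoxigenic Bacteroides fragilis, a toxin-secreting gut bacterium, at 500 bacteria per cell. The control group (4 libraries) received the medium of the bacterium without the bacterium, and its titles call it untreated. Nothing in the labels says that replicates of a group were separate cultures, so p-values measure the spread between these libraries, which may be technical.

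MiR-33a and miR-33b are carried in introns of the genes for sterol regulatory element-binding proteins, the transcription factors that switch on cholesterol and fatty acid synthesis. SREBF2, the host of miR-33a, drives mainly the cholesterol genes, and SREBF1, the host of miR-33b, mainly the fatty acid genes. The 5p arms are the better known products: they repress the cholesterol exporter ABCA1 and enzymes of fatty acid oxidation, so that a host gene and its miRNA act in the same direction on cellular lipid. A hairpin yields a 5p and a 3p strand, of which the one loaded into Argonaute is kept and its partner is usually degraded.

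The 4 mature sequences, from RefSeq, are shown with bases 2 to 8, the seed that selects targets, in capitals, because the family is defined by the seed of its 5p arms.
hsa-miR-33a-5p: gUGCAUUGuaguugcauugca
hsa-miR-33b-5p: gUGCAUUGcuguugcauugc
hsa-miR-33a-3p: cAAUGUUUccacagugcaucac
hsa-miR-33b-3p: cAGUGCCUcggcagugcagccc

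Both 5p arms have the seed UGCAUUG, which no other mature miRNA in the RefSeq table carries. They match at 18 of 20 aligned bases, and the differences, counted from the 5′ end with the miR-33a base first, are U9C and A10U. The 3p arms match at 15 of 22 bases and differ at 3 seed positions (A3G, U6C and U7C), so they share no seed with each other. The seed AGUGCCU of miR-33b-3p also occurs in miR-515-3p and miR-519e-3p, and both had 0 counts in all 8 libraries. GC content was 42.9% in miR-33a-5p, 45.5% in miR-33a-3p, 50% in miR-33b-5p and 72.7% in miR-33b-3p.

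The hairpins are printed with the mature arms in capitals, to show where each arm lies in its precursor.
MIR33A: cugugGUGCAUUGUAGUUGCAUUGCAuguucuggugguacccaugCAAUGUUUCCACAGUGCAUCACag
MIR33B: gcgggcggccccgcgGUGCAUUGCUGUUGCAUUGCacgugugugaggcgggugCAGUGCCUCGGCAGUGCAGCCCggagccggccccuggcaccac

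MIR33A lies at chr22:41900944-41901012 (GRCh38.p14, plus strand), in intron 16 of the SREBF2 transcript SREBF2-201. MIR33B lies at chr17:17813836-17813931 (GRCh38.p14, minus strand), in intron 16 of the SREBF1 transcript SREBF1-201. Every annotated transcript of the host that spans a hairpin (6 for SREBF2 and 7 for SREBF1, GENCODE) has it in an intron and not in an exon or UTR. Both are on the strand of the host gene. Folded alone, the MIR33A hairpin of 69 bases had a minimum free energy of -36.4 kcal/mol and the MIR33B hairpin of 96 bases one of -60.2 kcal/mol. In these folds 18 of 21 bases of miR-33a-5p and 19 of 22 of miR-33a-3p were paired. Each arm name comes from 1 hairpin gene, so counting a read once per genomic copy would not change its value.

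The ETBF libraries held 2591655 to 4706156 counts and the control libraries 5243400 to 6522542, so every ETBF library was shallower than every control. Of the 480 miRNAs with enough counts to test, 95 were higher and 70 lower with ETBF (edgeR quasi-likelihood test, Benjamini-Hochberg adjusted p below 0.05), and with upper-quartile scaling 71 were higher and 89 lower (44.4% higher, against 57.6%). Epithelial markers were abundant: the 7 listed (the miR-200 family, miR-192-5p and miR-194-5p) summed to 23730 to 26690 CPM with ETBF and 27880 to 29740 CPM in controls, with 0 higher, 4 lower and 3 not passed. CPM are counts scaled to a common library total, with TMM factors between libraries. Of 19 markers of blood, endothelium, stroma and muscle, liver and neurons 13 were tested, with 1 higher, 2 lower and 10 not passed. They summed to 9096 to 11310 CPM with ETBF and 9903 to 11980 CPM in controls, mostly from the neuronal marker miR-9-5p, whose mean was 8492 CPM in ETBF libraries and 8652 CPM in the others. The marker that rose was miR-451a of red blood cells (29.4 ± 19.8 CPM with ETBF, 7.24 ± 1.97 CPM in controls, SD). The other blood markers tested, miR-486-5p (log2 fold change -0.09, SE 0.12), miR-142-3p and miR-142-5p, did not pass. The markers that fell were miR-126-3p of endothelium and miR-129-5p of neurons (log2 fold change -3.62, SE 0.18), and miR-124-3p, the defining neuronal marker, was at 0 in all libraries. The other endothelial marker, miR-126-5p, did not pass (-0.11, SE 0.10). The part of these differences in the miR-33 values was not tested.

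The miR-33 arms were scarce in these cells. In controls the mean levels ran, from the top, in the order miR-33a-5p (8.46 ± 1.85 CPM), miR-33a-3p (6.99 ± 1.01 CPM), miR-33b-3p (4.07 ± 1.08 CPM) and miR-33b-5p, which had no count (SD, n = 4). With ETBF the order was miR-33a-3p (9.72 ± 2.46 CPM), miR-33b-3p (6.63 ± 1.07 CPM), miR-33a-5p (4.54 ± 0.654 CPM) and miR-33b-5p. All arms are 20 to 22 bases long, and these levels are not divided by length or corrected for how well each sequence is cloned. By mean level over the 8 libraries miR-33a-3p ranked 316, miR-33a-5p 344 and miR-33b-3p 370 of the 480 tested miRNAs. MiR-33b-5p did not have enough counts for the test.

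The order of the arms was also compared within each library, where no scaling is needed. In controls miR-33a-5p exceeded miR-33b-3p in 4 of 4 libraries, and with ETBF in 0 of 4. MiR-33a-5p exceeded miR-33a-3p in 2 of 4 control libraries and in 0 of 4 ETBF libraries, so the neighbours at the top of the control order did not differ beyond their spread. MiR-33a-3p exceeded miR-33b-3p in 4 of 4 control and 3 of 4 ETBF libraries, and in ETBF replicate 1 it had 29 counts against 33.

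**Figure D1:**
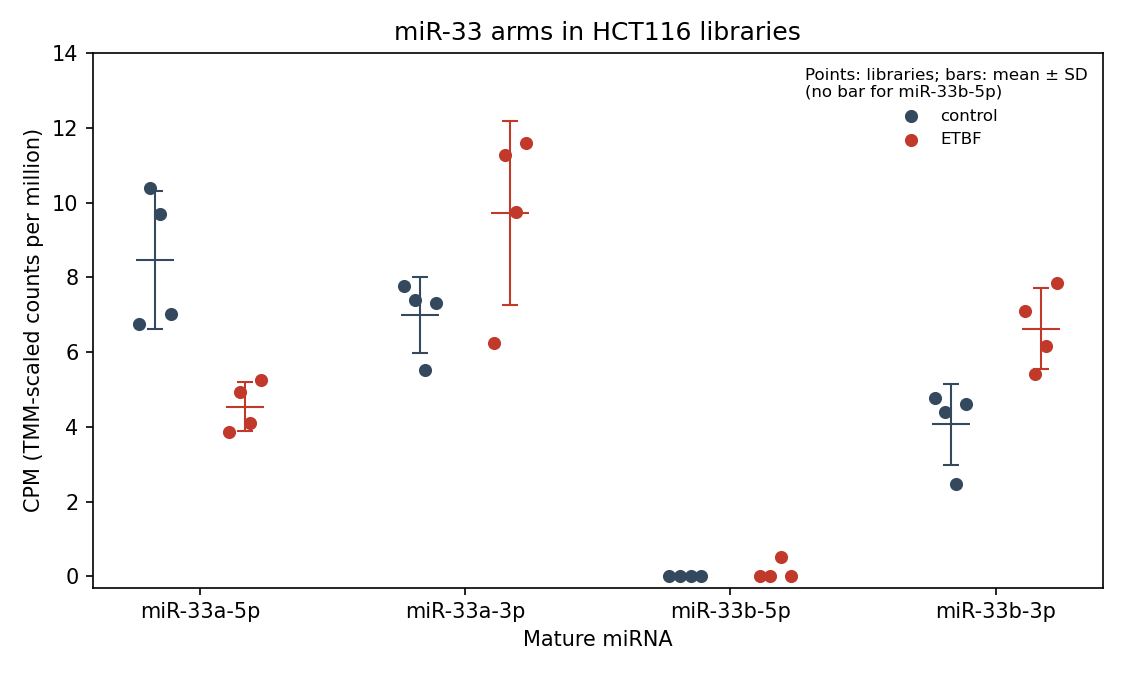
Level of each miR-33 arm in each library, in CPM after TMM scaling. Points are libraries, bars are mean ± SD of 4 libraries per group (not drawn for miR-33b-5p). MiR-33a-5p lies lower in all 4 ETBF libraries (3.87 to 5.24 CPM) than in any control (6.76 to 10.4 CPM), miR-33b-3p lies higher, and miR-33b-5p is near 0 throughout.

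MiR-33a-5p, the arm that represses ABCA1, was lower with ETBF, at 0.536 of the control mean. Its counts were 18, 21, 16 and 14 in ETBF replicates 1 to 4 and 34, 59, 51 and 47 in control replicates 1 to 4. These correspond to 3.87, 4.94, 4.11 and 5.24 CPM with ETBF and to 6.76, 10.4, 9.70 and 7.01 CPM in controls. All ETBF libraries lay below all controls, with control replicates 2 and 3 the highest. The fitted log2 fold change was -0.91 (SE 0.22). With so few reads the counting error is wide: the 14 reads of ETBF replicate 4 have a 95% Poisson interval of 7.65 to 23.5, and the 34 of control replicate 1 one of 23.6 to 47.5. No correction by molecular identifiers is known for these reads, and all intervals and limits given here cover counting error only.

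MiR-33a-3p, the partner strand, was not lower with ETBF. It had 29, 48, 38 and 31 counts with ETBF and 39, 42, 29 and 49 in controls. Its levels were 6.23, 11.3, 9.76 and 11.6 CPM with ETBF against 7.76, 7.40, 5.51 and 7.31 CPM in controls. In 3 ETBF libraries it lay above every control and in ETBF replicate 1 it lay among them, so the groups overlapped. The log2 fold change was 0.45 (SE 0.21), and without ETBF replicate 1 it was 0.62.

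MiR-33b-3p, with the highest GC content of the 4, had 33, 23, 24 and 21 counts with ETBF and 24, 25, 13 and 31 in controls. Its levels were 7.09, 5.41, 6.16 and 7.86 CPM with ETBF and 4.77, 4.40, 2.47 and 4.62 CPM in controls. All 4 ETBF libraries lay above all controls, and control replicate 3 was the lowest. The log2 fold change was 0.68 (SE 0.24), and without control replicate 3 it was 0.51. The raw counts of the groups overlap, so this order appears only after division by the library totals.

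MiR-33b-5p, which has the family seed, was read 2 times, both in ETBF replicate 3, and 0 times in the other 7 libraries. A count of 0 allows up to 3 counts, or 0.447 to 0.597 CPM in the control libraries and 0.645 to 1.12 CPM in ETBF replicates 1, 2 and 4. No difference between the groups was detectable at this depth.

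Of the 3 arms tested, 1 (miR-33a-5p) was called lower, 1 (miR-33b-3p) was called higher and miR-33a-3p did not pass. Over all 480 miRNAs 14.6% were called lower and 19.8% higher, and the median log2 fold change was 0.01. The groups did not overlap, with ETBF below, for 15.6% of the 480, and with ETBF above for 18.1%. Since the family was chosen from this contrast, nothing is read from its count. The fold change of miR-33a-5p lay between -1.09 and -0.81 in the 17 alternatives that gave a value, and that of miR-33b-3p between 0.51 and 0.89. The call of miR-33b-3p was lost in 10 of the 17: leaving out any of ETBF replicates 1, 3 and 4 or control replicates 2, 3 and 4 ended it, as did upper-quartile scaling, DESeq2, omitting the filter and thinning all libraries to 2591655 counts (0.58). MiR-33a-3p was called in 1 of 17, the fit without ETBF replicate 1. In bulk RNA such as this, fewer cells with a miRNA and less of it per cell cannot be told apart.

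Both 5p arms carry the same seed, so the reads that bear it were added up by source. MiR-33a gave 191 of 191 such reads in controls, where 0 reads of miR-33b-5p allow it a share of up to 1.57%, and miR-33a-5p was at least 63.7-fold higher over the group. With ETBF miR-33a gave 69 of 71 reads, or 97.2% (95% Clopper-Pearson interval 90.2% to 99.7%), a ratio of 34.5 (9.20 to 291). Nearly all reads with the family seed were thus assigned to the SREBF2 hairpin in both groups. The 2 positions at which the arms differ tell them apart, but how many mismatches the authors allowed in alignment is unknown here.

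The division of miR-33a reads between its arms was compared within each library, where both arms share the same depth. The 5p arm made up 46.6%, 58.4%, 63.8% and 49.0% of 73, 101, 80 and 96 miR-33a reads in control replicates 1 to 4. It made up 38.3%, 30.4%, 29.6% and 31.1% of 47, 69, 54 and 45 reads in ETBF replicates 1 to 4. The groups did not overlap, and ETBF replicate 1 and control replicate 1 were the libraries nearest to each other. The mean share was 54.4% ± 8.05 in controls and 32.4% ± 4.00 in ETBF libraries (SD, 4 libraries per group). Over the summed reads it was 54.6% (95% Wilson interval 49.3% to 59.7%) in controls and 32.1% (26.2% to 38.6%) with ETBF. The 5p to 3p ratio was 0.483 ± 0.0928 with ETBF (0.421 to 0.621) and 1.25 ± 0.412 in controls (0.872 to 1.76).

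**Figure D2:**
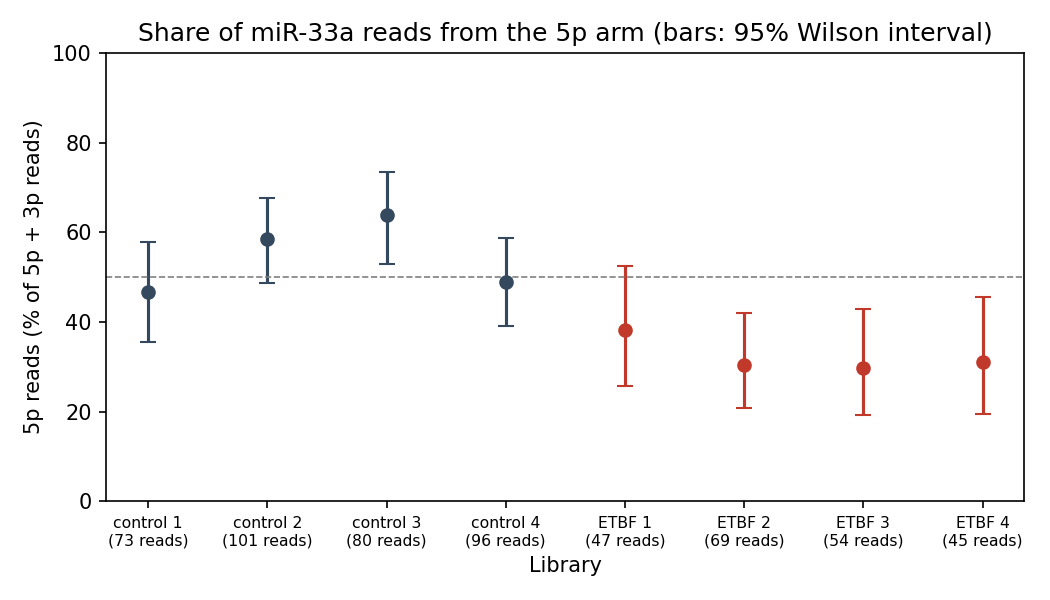
Share of miR-33a reads that came from the 5p arm, in percent, for each library, with 95% Wilson intervals and the number of reads under each. The 4 ETBF libraries lie at 29.6% to 38.3% and the 4 controls at 46.6% to 63.8%, and the dashed line marks equal arms.

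The summed output of the hairpin differed much less than its arms. The 2 arms of miR-33a together were at 10.1, 16.2, 13.9 and 16.8 CPM in ETBF replicates 1 to 4 and at 14.5, 17.8, 15.2 and 14.3 CPM in control replicates 1 to 4. The means were 14.3 ± 3.05 and 15.5 ± 1.60 CPM, a ratio of 0.922, and the ranges overlapped.

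The arm ratio of miR-33a was set beside that of all 118 hairpins whose arms both had enough counts. On the log2 scale, with 0.5 added to each count, the ratio was -1.05 ± 0.253 with ETBF and 0.26 ± 0.468 in controls, a change of -1.31 (SE 0.24). It was the fifth largest change toward the 3p arm, between miR-195 (-1.34) and miR-30d (-1.17), while the median over the 118 was 0.01. Its 1 call toward 3p stands beside a background of 20.3% of hairpins called toward 3p and 11.9% toward 5p (limma, adjusted over the 118). Groups without overlap, ETBF below, made up 20.3% as well. In all, 38 hairpins were called, and 25 without ETBF replicate 4.

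In 3 of the 118 hairpins the arm with the higher mean log2 level differed between the groups, and miR-33a was 1 of them. The others, named after their values were seen, were miR-1247 and miR-132. A fitted change below 0 for the 5p arm together with one above 0 for the 3p arm occurred in 27 hairpins. In 75 hairpins the less abundant arm had a larger share with ETBF than in controls. In miR-33a the less abundant arm by mean count over the 8 libraries was 5p (32.5 against 38.1 counts), and its share was smaller with ETBF. That order includes the ETBF libraries. Over the controls alone 3p was the less abundant arm (159 reads against 191 of 5p), and its share was larger with ETBF.

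**Figure D3:**
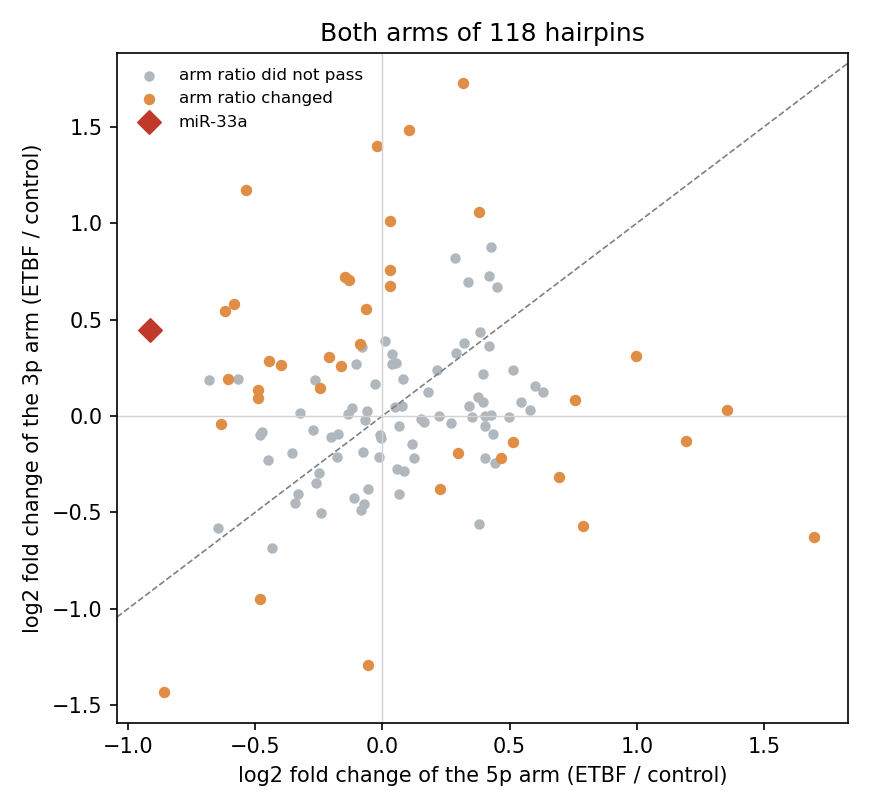
Log2 fold change (ETBF over control) of the 3p arm against that of the 5p arm for the 118 hairpins. Points on the dashed line changed equally in both arms, orange points had a changed arm ratio, and the red diamond is miR-33a at -0.91 (5p) and 0.45 (3p), above the line.

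MiR-33b gave almost only 3p reads. Its 5p share was 0 of 93 reads in controls (95% Wilson interval 0% to 3.97%) and 2 of 103 reads with ETBF, or 1.94% (0.534% to 6.81%). A change in its arm ratio could not be tested at this depth. The paralogs thus differed in the arms of the reads assigned to them: in controls 54.6% of miR-33a reads and 0 of 93 miR-33b reads were 5p. The part of read assignment between the 5p arms, and of cloning differences between arms, was not tested. The log2 ratio of miR-33a-3p to miR-33b-3p was 0.52 ± 0.513 with ETBF and 0.80 ± 0.220 in controls, with overlapping ranges of -0.18 to 1.05 and 0.65 to 1.13. The log2 ratio of miR-33a-5p to miR-33b-3p was -0.53 ± 0.301 and 1.06 ± 0.665, and its ranges did not overlap (-0.86 to -0.13 against 0.49 to 1.93).

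The miRNAs with the profile most like that of miR-33a-5p were found by the root mean square difference of log2 CPM over the 8 libraries, each profile centred on its own mean, among 294 miRNAs with at least 10 CPM. The closest was miR-574-3p (0.21), followed by miR-941 (0.22), miR-375 (0.23), miR-499a-5p (0.24) and miR-556-5p (0.24). A flat profile would lie at 0.47 from miR-33a-5p, and the most distant miRNA, miR-7641, lay at 1.93. All 5 were lower with ETBF, with log2 fold changes of -0.95 (SE 0.09) for miR-574-3p, -0.70 (SE 0.08) for miR-941, -0.56 (SE 0.07) for miR-375, -0.65 (SE 0.13) for miR-499a-5p and -0.47 (SE 0.16) for miR-556-5p. That direction follows from choosing them by likeness to miR-33a-5p over the same libraries, so nothing is read from it. The call of miR-556-5p was lost in 8 of 18 alternatives. It ended with total-count scaling, limma-voom and thinning. It also ended when any of ETBF replicates 1, 2 and 4 or control replicates 2 and 3 was left out.

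Other miRNAs known to act on cholesterol and lipoprotein genes went both ways. Their list also held miR-182-5p, miR-96-5p and miR-183-5p, which were included for their cluster, a target of SREBF2, and did not pass. Of 25 listed, 24 were in the files under the listed name and 21 had enough counts to test: 3 were higher (background 19.8%), 7 lower (14.6%) and 11 did not pass. Their median log2 fold change was -0.06, against 0.01 over all tested. The name miR-301b-3p was absent. An entry named miR-301b, without an arm, was called lower (-0.66, SE 0.12) and is not in these counts. Those called lower included miR-26a-5p (-0.49, SE 0.06), miR-148a-3p (-0.45, SE 0.09), miR-27a-3p (-0.57, SE 0.07), miR-128-3p (-0.47, SE 0.08) and, less so, miR-24-3p (-0.31, SE 0.07). MiR-30c-5p, known for repressing the lipoprotein assembly gene MTTP, was at -0.16 (SE 0.06, adjusted p = 0.0437), and its call was lost in 11 of 18 alternatives (adjusted p up to 0.257), among them those without any 1 library other than ETBF replicate 2. Those called higher included miR-20a-5p (0.63, SE 0.07) and miR-17-5p (0.60, SE 0.10) of the miR-17-92 cluster. The abundant miR-27b-3p (0.09, SE 0.07, adjusted p = 0.355) and miR-182-5p (-0.08, SE 0.06, adjusted p = 0.355) did not pass.

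A cluster that encodes miR-182, miR-96 and miR-183 is known as a target of the SREBF2 protein, the product of the miR-33a host gene. Its 3 arms, which are also on the lipid list, were called neither higher nor lower, with miR-183-5p at 0.06 (SE 0.06, adjusted p = 0.486) and miR-96-5p at -0.10 (SE 0.08, adjusted p = 0.363). MiR-33a-5p and these arms are read from different transcripts, and the mRNAs of SREBF1, SREBF2 and ABCA1 were not analysed here.

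A list of miRNAs carried in introns of pantothenate kinase, PPARGC1B and CTDSP genes was read beside miR-33. Intronic miRNAs of other genes were not listed, so the counts do not describe intronic miRNAs in general. Of 8 listed 7 were tested, of which 3 were called higher (background 19.8%) and 1 lower (14.6%), while 3 missed the threshold. Their median log2 fold change was 0.07, against 0.01 over all tested. MiR-103a-3p (0.37, SE 0.07) and miR-107 (0.39, SE 0.07), from introns of the pantothenate kinase genes that start coenzyme A synthesis, were higher with ETBF. The third was miR-378a-5p, from the coactivator gene PPARGC1B (0.39, SE 0.15, adjusted p = 0.0449), a call that ended in 11 of 18 alternatives (adjusted p up to 0.194), among them leaving out any of replicates 1, 2 and 3 of either group. Its partner miR-378a-3p was at 0.07 (SE 0.09, adjusted p = 0.592). From introns of the CTDSP phosphatase genes, miR-26a-5p, also on the lipid list, was lower and miR-26b-5p was at 0.06 (SE 0.07, adjusted p = 0.540). The signs of miR-26b-5p and miR-378a-3p turn with upper-quartile scaling.

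**Figure D4:**
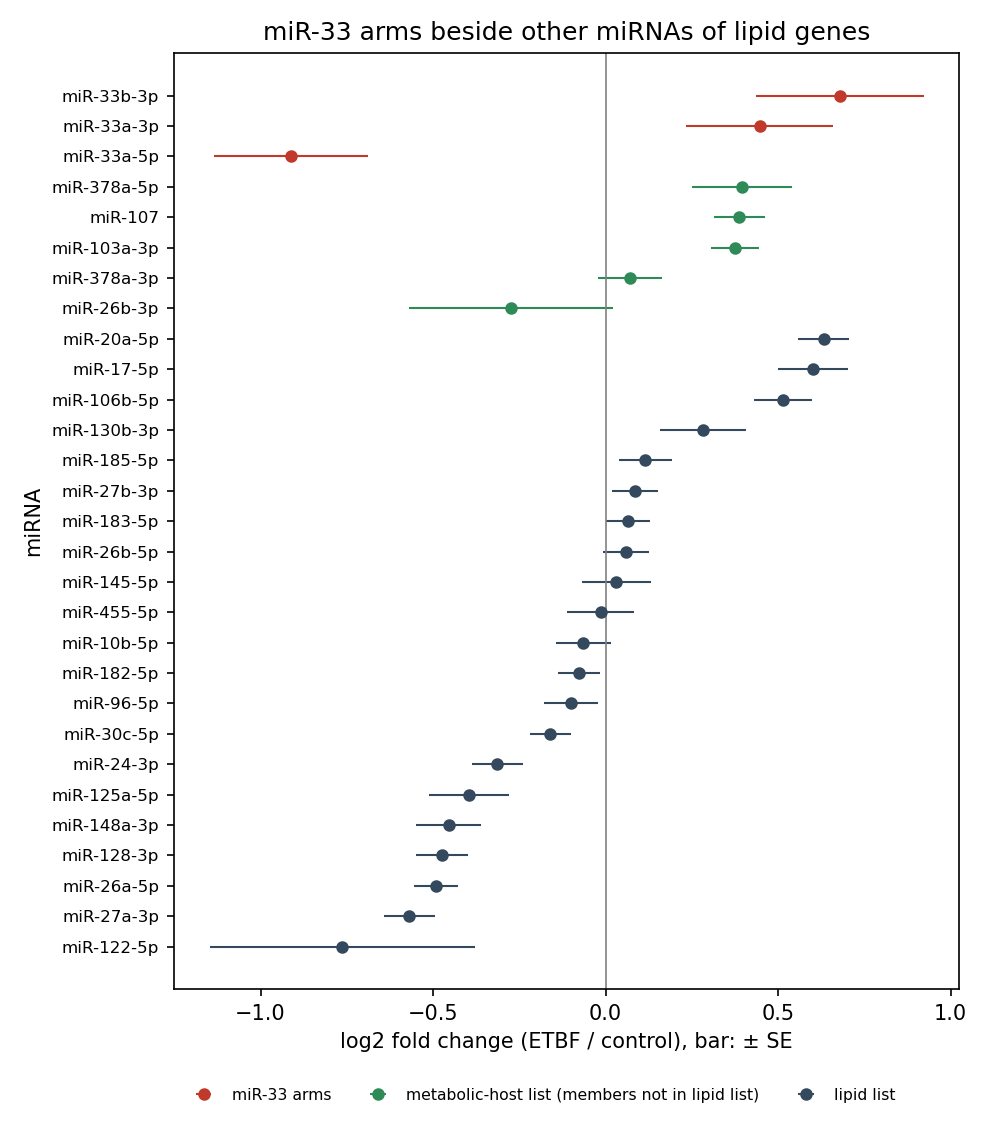
Log2 fold change (ETBF over control, bars ± SE) of the 3 tested miR-33 arms, the intronic list and the lipid list (without the entry miR-301b). The intronic list covers pantothenate kinase, PPARGC1B and CTDSP genes only. MiR-33a-5p at -0.91 is the leftmost point and miR-33b-3p at 0.68 the rightmost, and the SEs of the miR-33 arms, from 0.21 to 0.24, are wider than those of most of the abundant miRNAs.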

How the data were processed

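Raw read counts per mature miRNA name were deposited, 1 file per library. The authors used Trimmomatic, FastQC and featureCounts with GRCh37.p5, per the submitters' processing notes; neither the aligner with its settings nor the miRNA annotation is given in the sources used here. Libraries were grouped by title. Within groups no 2 libraries were alike within counting error (chi-square over its degrees of freedom 18.4 or more).

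From these counts, edgeR 4.0.16 in R 4.3.3 (TMM, default filter with a minimum count of 10, quasi-likelihood test, Benjamini-Hochberg over 480 names) gave the fold changes; their SE is the log2 value over the root of its F statistic. Arm ratios were fitted with limma 3.58.1 over 118 hairpins. Both steps were also run on simulated data, with larger changes than those of the miR-33 arms and another count filter for the ratios. That run therefore does not cover changes of the size seen for the miR-33 arms. Hairpins were folded with RNAfold 2.7.2. Sequences are from RefSeq (GRCh38.p14) and introns from GENCODE; all 4 arms matched. No coordinates of the authors' build were used.

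The members and lists were chosen with earlier results of these data known. Named miRNAs are the members, up to 8 lipid-list and 4 intronic-list members past the threshold by abundance, the 2 most abundant of each list that did not pass, the 5 nearest profiles and the hairpins next to miR-33a in the order of arm ratios. MiR-301b is named in addition, since the listed name miR-301b-3p was absent. Alternatives were RLE, upper-quartile and total-count scaling, DESeq2 1.42.0, limma-voom, other filters, thinning, a GC correction (mature sequence for 86.9% of names), a replicate block and leaving out each library.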

Additional observations from a re-analysis of the deposited data

Results flagged for a closer look

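Among 52 sets of 4 values examined, 5 held a library far from the other 3, where about 1 in 20 would be flagged by chance. The 5p share of miR-33a was 38.3% in ETBF replicate 1 and 29.6% to 31.1% in the other ETBF libraries. In control replicate 3 miR-33b-3p was at 2.47 CPM, against 4.40 to 4.77 CPM in the remaining controls. MiR-33b-5p was at 0.514 CPM in ETBF replicate 3, from 2 reads, and at 0 in the others. A set with reads in only 1 library is always flagged, and the control set of miR-33b-5p, all at 0, could not be. The rate of 1 in 20 does not apply to these sets. MiR-148a-3p was at 13250 CPM in ETBF replicate 2, against 16230 to 16320 CPM, and miR-103a-3p at 12540 CPM in control replicate 2, against 10660 to 10800 CPM.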

How the results depend on the processing

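The numbers of miRNAs higher and lower with ETBF and of list members called stayed within 1.5 times their reported values in all 18 alternatives. The miR-33a arm ratio change lay between -1.46 and -1.12 in 12 alternatives, with -1.31 under a replicate block. Leaving out 1 library at a time gave 25 to 38 hairpins with a changed ratio and an ETBF share of miR-33a-5p among 5p reads of 96% to 100%. The fold changes of miR-33a-5p, miR-33a-3p and miR-33b-3p were -0.90, 0.45 and 0.70 with the replicate block and -0.85, 0.40 and 0.89 after removal of the GC trend. Replicate numbers do not pair the libraries in the labels, and same-numbered libraries did not deviate together (correlations from -0.06 to 0.06). With that block 92 miRNAs were higher and 67 lower, and the calls of miR-30c-5p and miR-378a-5p were lost (adjusted p = 0.0969 and 0.0627). With a minimum count of 50 the miR-33 arms were not tested. Of 359 values of 20 other miRNAs, 30 lost the call, and 4 turned without passing: miR-26b-5p (-0.0242) and miR-378a-3p (-0.0157) with upper-quartile scaling, miR-26b-5p (-0.044) after GC removal and miR-378a-3p without ETBF replicate 1 (-0.0437, where leaving out 1 library gave values up to 0.1225); the cause was not tested. With 13 to 59 reads per library for each of the 3 tested arms and 0 to 2 for miR-33b-5p, depth limits every miR-33 value.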
